A study of Mus musculus with 8 samples.

Results

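Interferon-stimulated genes are the genes that cells switch on when interferon binds its receptors, and 39 of them, chosen by gene symbol, are described here in mouse oligodendrocyte progenitors with and without Cre-mediated deletion of Ehmt1 and Ehmt2. Of the 39 genes, 37 had a row among the 24155 genes of the count table, and Oas1a and Oas2 were not analysed here. After the filter on low counts, 29 of the 37 were tested among 18102 genes, and the other 8 (Oas3, Oasl1, Oasl2, Ifit1, Ifit3b, Isg15, Mx1 and Ifi44) are given as counts. None of the 29 passed the filter through the level of 1 group alone.

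The cKO group is 4 cultures of Ehmt1fl/fl;Ehmt2fl/fl progenitors that were infected with Ad-RFP-iCre, an adenovirus carrying a red fluorescent protein and Cre recombinase. The control group is 4 cultures of the same floxed genotype that were infected with Ad-RFP, the virus without Cre. The progenitors, glial cells that divide and later make myelin as oligodendrocytes, were immunopanned from male and female pups at postnatal day 7 and grown in SATO medium with the mitogens bFGF at 20 ng/mL and PDGF-AA at 10 ng/mL. Virus stayed on the cells for 6 h at a multiplicity of infection of 10, and polyadenylated RNA was taken 72 h after infection. Each group has replicates 1, 3, 4 and 6, and a number stands for a batch with 1 cKO and 1 control library. The batch called 3 here is named Batch-3-2 in the descriptions of both its libraries. Numbers 2 and 5 were not analysed here. No label says that batches are separate animals, so p-values measure the spread between these pairs, which may be technical. All 8 cultures received adenovirus, and no uninfected culture is among them, so the values compare infected cells with infected cells.

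Libraries held 43542742 to 65374488 estimated counts. Levels are in CPM (counts scaled to library size), and a change is the log2 ratio of cKO to control ± SE, fitted with edgeR's quasi-likelihood test and batch as a block. "Rose" and "fell" mean a Benjamini-Hochberg adjusted p under 0.05 over all 18102 genes. The targeted genes were lower in cKO, with Ehmt1 at 41.5 ± 3.98 CPM in cKO and 95.5 ± 5.58 CPM in control libraries and Ehmt2 at 58.4 ± 5.86 CPM in cKO and 177 ± 17.1 CPM in control libraries (SD, n = 4 each). Counts cover whole genes, and RNA from recombined alleles and RNA from cells without recombination cannot be told apart in them. All 8 progenitor markers, Pdgfra and Olig2 among them, were measured, with summed levels of 7932 to 11892 CPM in cKO and 8626 to 13214 CPM in control libraries. The sum was lower in cKO in 4 of 4 batches, and 1 of the 8 markers rose and 2 fell (37.5% called, against 20.5% of all genes). Mitochondrially encoded genes took 3.31% ± 0.28 of counts in cKO and 2.80% ± 0.37 in control libraries (SD, n = 4 each), and the ribosomal RNA gene CT010467.1 took 6.62% to 9.13% in cKO and 7.91% to 10.1% in control. The part of these library differences in the results was not tested.

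Type I interferons bind the receptor Ifnar1/Ifnar2, whose kinases Jak1 and Tyk2 activate transcription factors of the STAT family. Stat2 acts with Irf9 in the complex ISGF3, which binds interferon-stimulated response elements in promoters, while STAT factors activated by interferon gamma bind palindromic GAS elements. The induced proteins sense viral RNA, block its translation or halt virus entry and release, and several of them act back on the pathway. Ehmt1 and Ehmt2 encode partner methyltransferases for lysine 9 of histone H3, a mark of silent chromatin.

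Of the 29 tested genes, 4 rose (Ifit2, Ifit3, Ifih1 and Ifi27), 1 fell (Stat2) and 24 did not pass. The 5 genes are 17.2% of the 29, while 20.5% of all genes tested passed in either direction, 10% higher and 10.4% lower. The share among the interferon-stimulated genes is thus near the share among all genes. Their median log2 fold change was -0.01, as was that of all genes, and their median absolute log2 fold change was 0.14 against 0.12 for all genes. Within batches, the median difference of cKO from control over the 29 genes was -0.03, -0.03, 0.05 and 0.06 on the log2 scale in batches 1, 3, 4 and 6. The summed level of the interferon-stimulated genes was 272 to 343 CPM in cKO and 259 to 341 CPM in control libraries, and the ranges overlap. Within batches the sum over the 37 genes with a row was higher in cKO in 4 of 4, as was the mean log2 CPM over the 29 tested. In batch 1, Ifit2 alone was at 71.1 CPM in cKO and 54.9 CPM in control, where the sums were 343 and 341 CPM. In batch 3, Ifit2 was at 73.7 and 42.7 CPM, where the sums were 277 and 262 CPM. Ifit2 differed there by more than the sum, so the other genes together were lower in cKO in both batches. In bulk RNA, a change in the number of cells that carry an RNA and a change in RNA per cell cannot be told apart.

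**Figure D1:**
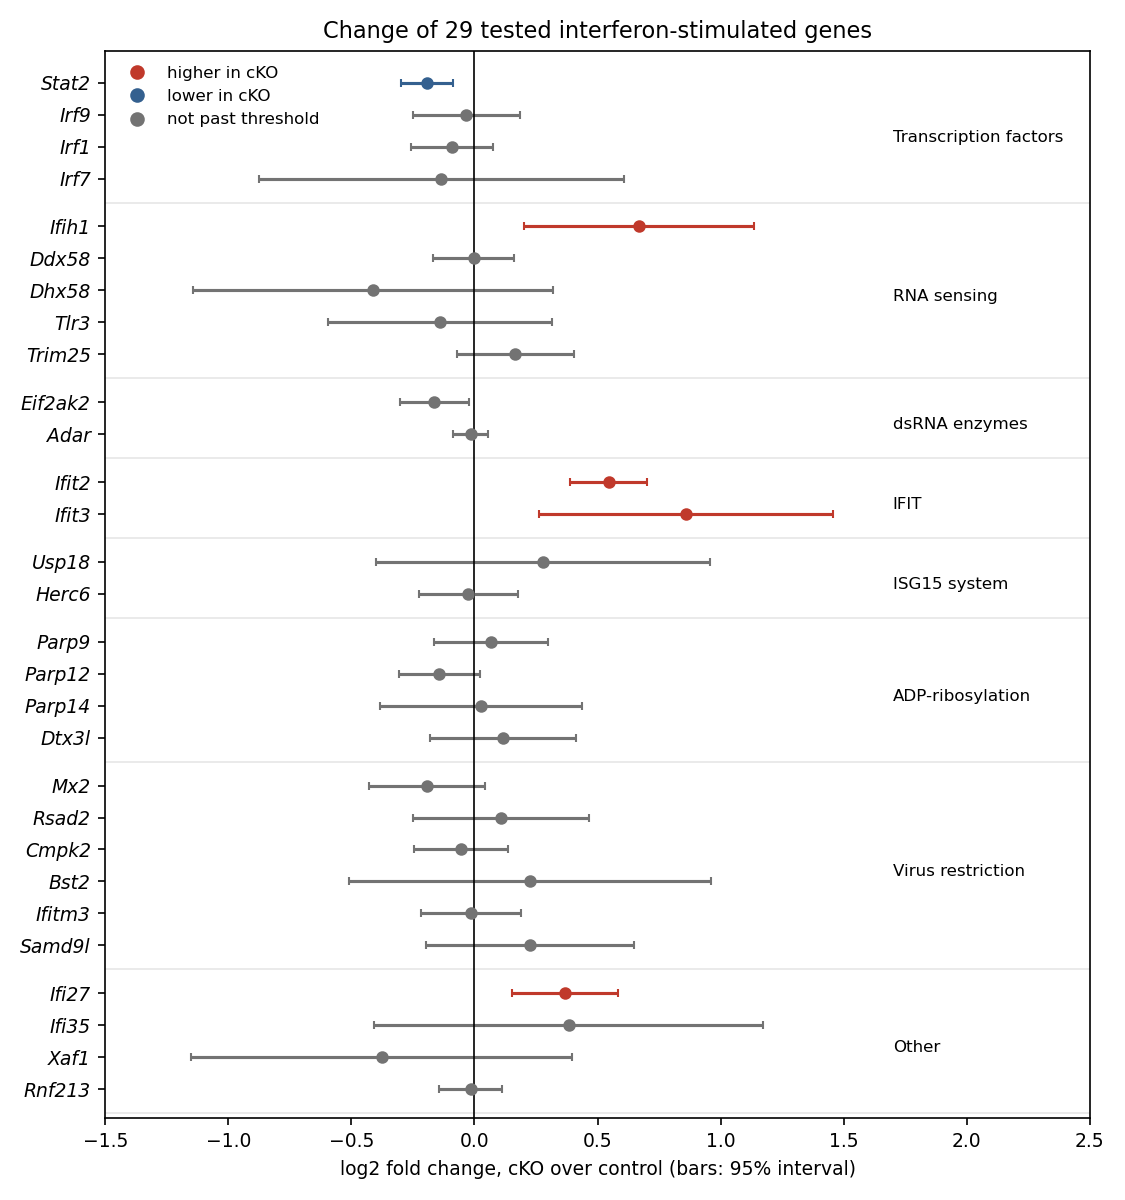
Log2 fold change of cKO over control for each of the 29 tested interferon-stimulated genes, with 95% intervals from the edgeR fit with the batch block, grouped by role. Ifit2, Ifit3, Ifih1 and Ifi27 lie to the right of 0 and Stat2 to the left, and the 24 grey genes run from -0.41 to 0.38.

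The 5 calls rest on the batch block, and each of them except Ifit2 was lost when 1 or more of the batches was left out. In the fit with group alone, without the replicate block, 0 of 29 passed in edgeR, where 3 of all genes passed, and 3 of the 29 (Ifit2, Ifit3 and Ifi27) had an unadjusted p under 0.05. With the block, Ifit2 passed in 11 of 11 alternative settings. With 1 batch left out, the number of interferon-stimulated genes past the threshold was 3 without replicate 1 (Ifit2, Ifit3 and Stat2), 1 without replicate 3 (Ifit2), 2 without replicate 4 (Ifit2 and Ifi27) and 3 without replicate 6 (Ifit2, Ifi27 and Eif2ak2, the last of which is not among the 5).

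Of the 4 genes of the IFIT family, tetratricopeptide-repeat proteins that bind viral RNA or translation factors, both tested genes rose. Of all genes tested, 20.5% passed in either direction. Ifit2 (chr19:34550694-34576419, plus strand, mm10) stood at 71.1, 73.7, 41.4 and 59.5 CPM in cKO replicates 1, 3, 4 and 6, against 54.9, 42.7, 31.1 and 39.3 CPM in control replicates 1, 3, 4 and 6. It was higher in cKO in 4 of 4 batches, and the groups overlap because cKO replicate 4 lies below control replicates 1 and 3. Its mean was 61.4 ± 14.7 CPM in cKO and 42.0 ± 9.88 CPM in control libraries (SD, n = 4 each), a log2 fold change of 0.54 ± 0.07 (1.46-fold, edgeR adjusted p = 0.00146). Over the alternatives with the block its edgeR, DESeq2 or limma adjusted p ran from 7.69e-11 to 0.0123.

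Ifit3 (chr19:34583531-34588731, plus strand) was far less abundant. It was at 0.828, 0.759, 0.633 and 0.630 CPM in cKO replicates 1, 3, 4 and 6, against 0.706, 0.271, 0.381 and 0.265 CPM in control replicates 1, 3, 4 and 6. All 4 batches had the higher level in cKO, but control replicate 1 lies among the cKO libraries. The log2 fold change was 0.86 ± 0.27 (edgeR adjusted p = 0.0464). It passed in 5 of 10 alternatives with the block (adjusted p from 0.0401 to 0.170) and was lost without replicate 3, 4 or 6. Of the 75-base stretches of its transcript, 41.1% also occur in Ifit3b, so reads may have been divided between these neighbours.

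Ifit3b and Ifit1 lie next to them on chromosome 19 and stayed under the count filter. Ifit3b had 16, 3, 0 and 7 counts in cKO replicates 1, 3, 4 and 6, against 1, 6, 3 and 9 in control replicates 1, 3, 4 and 6. Ifit1, the founding member of the family, had 23, 1, 7 and 10 counts in cKO replicates 1, 3, 4 and 6, against 3, 3, 6 and 3 in control replicates 1, 3, 4 and 6. Ifit1 was higher in cKO in 3 of 4 batches and lower in batch 3, and the groups overlap for both genes. A fit of all genes without the filter gave Ifit1 a log2 fold change of 1.22 with an edgeR adjusted p of 0.236, and Ifit3b 0.19 with an adjusted p of 0.928. Per kb of exon in the GENCODE annotation, Ifit2 averaged 15.6 CPM in cKO and 10.7 CPM in control libraries, whereas Ifit3 averaged 0.408 CPM in cKO and 0.233 CPM in control.

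**Figure D2:**
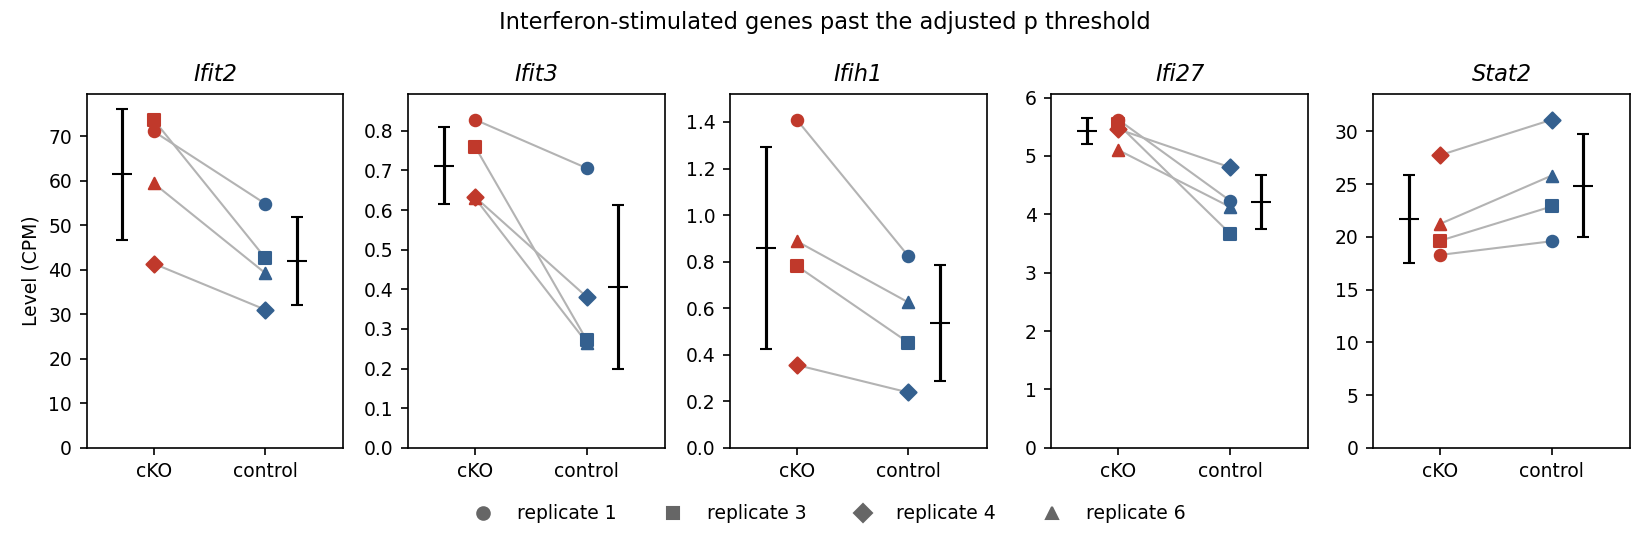
CPM in each library for the 5 interferon-stimulated genes past the adjusted p threshold, cKO left and control right, with grey lines joining the libraries of a batch and black bars for the mean ± SD (n = 4). Each batch line of Ifit2, Ifit3, Ifih1 and Ifi27 is higher in cKO, each line of Stat2 is lower, and only the Ifi27 groups do not overlap.

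Among the genes that carry the signal to the nucleus, Stat2 fell and 3 did not pass. Stat2 (chr10:128270559-128292849, plus strand), the ISGF3 subunit specific to type I and type III signalling, stood at 18.3, 19.6, 27.7 and 21.2 CPM in cKO replicates 1, 3, 4 and 6, against 19.6, 22.9, 31.1 and 25.8 CPM in control replicates 1, 3, 4 and 6. It was lower in cKO in 4 of 4 batches by a small amount, and the batches differ by more, so the groups overlap. The log2 fold change was -0.19 ± 0.05 (0.875-fold, edgeR adjusted p = 0.0187). The adjusted p was 0.0789 without replicate 3, 0.0773 without replicate 4 and 0.0590 without replicate 6, within a range from 0.0165 to 0.0789 over the alternatives with the block. Irf9, the DNA-binding subunit of ISGF3, had 5.22 to 5.76 CPM in cKO and 4.72 to 6.51 CPM in control libraries, a log2 fold change of -0.03 ± 0.10.

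Irf1, a factor that responds strongly to interferon gamma, had 6.54 to 8.69 CPM in cKO and 6.44 to 9.60 CPM in control libraries, with a log2 fold change of -0.09 ± 0.08. Irf7, which drives interferon alpha genes, was scarce, at 0.258 to 0.546 CPM in cKO and 0.294 to 0.543 CPM in control libraries, and its 95% interval ran from -0.88 to 0.61. Neither separated the groups. Irf7 overlaps Phrf1 on the opposite strand (164 counts for Irf7 and 46078 for Phrf1 over all libraries), and no source says whether counting used the strand. Irf9 overlaps Rnf31 on the same strand.

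Promoter sequence is shown for 4 genes to compare genes with and without the response element. Each stretch is the 250 bases before the RefSeq start of the gene in GRCm38.p6, 5′ to 3′ on the strand of the gene, and capitals mark matches to TTTCNNTTTC or its reverse complement GAAANNGAAA, the core of the response element. The windows are chr19:34550444-34550693 for Ifit2, chr19:34583279-34583528 for Ifit3 and chr10:128270248-128270497 for Stat2, all on the plus strand, and chr4:156200819-156201068 on the minus strand for Isg15.
Ifit2: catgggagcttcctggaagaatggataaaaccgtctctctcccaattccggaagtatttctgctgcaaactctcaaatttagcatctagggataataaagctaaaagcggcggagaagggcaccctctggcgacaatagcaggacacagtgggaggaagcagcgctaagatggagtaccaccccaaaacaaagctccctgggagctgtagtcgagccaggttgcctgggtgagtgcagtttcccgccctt
Ifit3: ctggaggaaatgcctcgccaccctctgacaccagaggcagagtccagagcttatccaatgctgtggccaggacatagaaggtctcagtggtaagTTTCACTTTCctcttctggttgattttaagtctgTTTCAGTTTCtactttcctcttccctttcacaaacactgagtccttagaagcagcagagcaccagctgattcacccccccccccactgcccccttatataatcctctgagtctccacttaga
Stat2: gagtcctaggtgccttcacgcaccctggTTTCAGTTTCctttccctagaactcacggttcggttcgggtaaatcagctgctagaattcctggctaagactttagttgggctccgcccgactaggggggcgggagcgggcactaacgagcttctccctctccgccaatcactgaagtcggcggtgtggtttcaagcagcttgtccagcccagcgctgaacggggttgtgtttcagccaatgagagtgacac
Isg15: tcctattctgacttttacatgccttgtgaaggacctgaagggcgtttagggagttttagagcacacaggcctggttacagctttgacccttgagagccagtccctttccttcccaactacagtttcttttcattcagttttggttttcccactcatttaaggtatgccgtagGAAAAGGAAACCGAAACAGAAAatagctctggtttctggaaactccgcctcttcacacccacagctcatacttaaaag
Ifit3 has matches that begin 156 and 122 bases before the start, Stat2 has 1 at 222 bases, and Isg15 has 3 that overlap, at 78, 72 and 66 bases. RefSeq gives Ifit2 2 starts, and the stretch shown lies before the first. Ifit2, which rose with the smallest p of the 29, has no response element match in the window of either start. Sequence outside these windows was not searched. The stretch shown also carries the palindromic form TTCNNNGAA (ttcctggaa, 241 bases before the start).

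Windows from 250 bases before to 50 after the start were at hand for 31 of the 39 genes. The response element form was present in 13 of the 31 (41.9%), against 3.99% of 27025 genes, and the palindromic form in 8 (25.8%), against 9.55%. Each N stands for any base, the palindromic form reads the same on both strands, and 4 genes held both forms. The response element form stood in the window of 2 of 3 genes that rose (Ifit3 and Ifih1), in Stat2, which fell, in 5 of 19 that did not pass and in 5 of 8 that were not tested. A match describes letters in the window and is not a measured binding site.

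Of the 5 RNA sensing genes, Ifih1 rose and the other 4 did not pass. Ifih1 (chr2:62595798-62646255, minus strand) encodes MDA5, the cytosolic helicase that senses long RNA duplexes. It was at 1.41, 0.782, 0.356 and 0.888 CPM in cKO replicates 1, 3, 4 and 6, against 0.823, 0.452, 0.238 and 0.625 CPM in control replicates 1, 3, 4 and 6. It was higher in cKO in 4 of 4 batches, with differences within batches from 0.48 to 0.75 on the log2 scale, although the groups overlap, and batch 4 was low in both. The log2 fold change was 0.67 ± 0.21 (1.59-fold, edgeR adjusted p = 0.0477). Ifih1 passed in 4 of 10 alternatives with the block, with adjusted p from 0.0414 to 0.175, and was lost without any 1 of the 4 batches.

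The related helicase Ddx58 (RIG-I), which senses short RNA with a triphosphate end, was at 8.25, 7.04, 6.41 and 9.14 CPM in cKO replicates 1, 3, 4 and 6, against 8.67, 7.45, 6.34 and 8.41 CPM in control replicates 1, 3, 4 and 6. The groups overlap almost fully, and the 95% interval of its log2 fold change was -0.17 to 0.16. Dhx58 (LGP2), a regulator of both helicases, was lower in 3 of 4 batches at under 1 CPM, with an interval from -1.15 to 0.32. Tlr3, the endosomal receptor for duplex RNA, was at 16.9, 4.36, 6.64 and 9.64 CPM in cKO replicates 1, 3, 4 and 6, against 20.5, 7.78, 5.52 and 8.25 CPM in control replicates 1, 3, 4 and 6. Batch 1 was high in both groups, and cKO was lower in batches 1 and 3 and higher in batches 4 and 6. Trim25, a ubiquitin ligase of the RIG-I pathway, was at 9.0, 10.3, 7.18 and 9.93 CPM in cKO replicates 1, 3, 4 and 6, against 10.2, 9.95, 5.15 and 7.72 CPM in control replicates 1, 3, 4 and 6. It was higher in cKO in 3 of 4 batches and lower in batch 1, with a log2 fold change of 0.17 ± 0.11.

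Of the 7 genes for enzymes that act on duplex RNA, 2 (Adar and Eif2ak2) were tested and neither passed, 3 stayed under the count filter and 2 were not analysed here. Adar, which deaminates adenosines in duplex RNA, was at 56.0, 59.9, 58.6 and 57.2 CPM in cKO replicates 1, 3, 4 and 6, against 57.2, 61.1, 58.7 and 57.3 CPM in control replicates 1, 3, 4 and 6. These are the steadiest values of the 29 genes, with a 95% interval of -0.09 to 0.06 on the log2 scale. Adar overlaps Chrnb2 on the opposite strand (25390 counts for Adar and 3924 for Chrnb2 over all libraries). Eif2ak2 (PKR), the kinase that halts translation on contact with duplex RNA, was at 25.1, 12.5, 18.6 and 18.7 CPM in cKO replicates 1, 3, 4 and 6, against 29.5, 16.1, 19.5 and 18.8 CPM in control replicates 1, 3, 4 and 6. Its level was lower in cKO in 4 of 4 batches, by almost nothing in batch 6, and the log2 fold change was -0.16 ± 0.06 (edgeR adjusted p = 0.0938). Without replicate 6 it passed, at -0.22 with an adjusted p of 0.0444, the lowest over its alternatives, which reached 0.330 with the block.

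The oligoadenylate synthetase genes, whose products activate the ribonuclease RNase L, were near the limit of detection. Oas3 had 3, 2, 3 and 6 counts in cKO replicates 1, 3, 4 and 6, against 0, 0, 2 and 0 in control replicates 1, 3, 4 and 6, and a count of 0 allows up to 3 by counting error alone. Oasl1 had 13, 5, 4 and 12 counts in cKO replicates 1, 3, 4 and 6, against 11, 3, 2 and 2 in control replicates 1, 3, 4 and 6. Oasl2 had 21, 4, 7 and 7 counts in cKO replicates 1, 3, 4 and 6, against 10, 7, 5 and 10 in control replicates 1, 3, 4 and 6. Oas3 and Oasl1 were higher in cKO in 4 of 4 batches and Oasl2 in 2 of 4. Without the filter, the edgeR adjusted p was 0.151 for Oas3, 0.310 for Oasl1 and 0.872 for Oasl2.

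Isg15 encodes the ubiquitin-like modifier that is among the most strongly induced proteins of an interferon response. It had 19, 7, 6 and 9 counts in cKO replicates 1, 3, 4 and 6, against 5, 4, 7 and 4 in control replicates 1, 3, 4 and 6. Scaled for library size, cKO was higher in 4 of 4 batches and the groups did not overlap, at 0.119 to 0.335 CPM in cKO and 0.0723 to 0.111 CPM in control libraries, and batch 4 differed by 0.07 on the log2 scale. In the fit without the filter, the log2 fold change was 0.997 with an edgeR adjusted p of 0.237. Usp18, the protease that removes Isg15 from proteins, had 0.237 to 0.511 CPM in cKO and 0.238 to 0.362 CPM in control libraries (0.28 ± 0.31 on the log2 scale). Herc6, the ligase that attaches Isg15 in mouse, had 3.12 to 6.27 CPM in cKO and 3.58 to 6.23 CPM in control libraries (-0.03 ± 0.09), and 22.4% of its 75-base stretches recur in Gm45193.

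The ADP-ribosylation genes showed no call among 4. Parp9 and its partner ligase Dtx3l, which lie head to head on chromosome 16 and overlap, had log2 fold changes of 0.07 ± 0.10 and 0.12 ± 0.13. Parp14, a mono-ADP-ribosyltransferase beside them, had 0.03 ± 0.19. Parp12, an antiviral transferase of the same family, was at 8.95, 7.73, 6.39 and 9.59 CPM in cKO replicates 1, 3, 4 and 6, against 10.4, 7.85, 7.79 and 9.94 CPM in control replicates 1, 3, 4 and 6. It was lower in cKO in 4 of 4 batches and the groups overlap, with a log2 fold change of -0.14 ± 0.07 (edgeR adjusted p = 0.210).

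Of the 7 genes that restrict viruses at entry, replication or release, 6 were tested and none passed. Ifitm3, which blocks fusion of virus with endosomes, was at 26.0, 3.28, 15.9 and 12.8 CPM in cKO replicates 1, 3, 4 and 6, against 24.1, 4.72, 15.4 and 12.1 CPM in control replicates 1, 3, 4 and 6. The batches set its level, with batch 1 high and batch 3 low in both groups, and its log2 fold change was -0.01 ± 0.09. The dynamin-like GTPase gene Mx2 was at 0.863, 2.10, 6.74 and 4.41 CPM in cKO replicates 1, 3, 4 and 6, against 1.06, 2.04, 7.90 and 5.30 CPM in control replicates 1, 3, 4 and 6. Its batch order was another one, with batch 4 high and batch 1 low, and its log2 fold change was -0.19 ± 0.11. Mx1 had 0, 2, 10 and 8 counts in cKO replicates 1, 3, 4 and 6, against 1, 0, 3 and 2 in control replicates 1, 3, 4 and 6, and the fit without the filter gave it a log2 fold change of 1.65 with an edgeR adjusted p of 0.300. The count table lists both Mx genes as polymorphic pseudogenes, that is, genes disrupted in some strains.

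Rsad2 (viperin), which makes an antiviral nucleotide, and its neighbour Cmpk2, a mitochondrial nucleotide kinase, had log2 fold changes of 0.11 ± 0.16 and -0.06 ± 0.09. Per kb of exon, Cmpk2 averaged 1.38 CPM in cKO and 1.44 CPM in control libraries, and Rsad2 averaged 0.286 CPM in cKO and 0.266 CPM in control. Bst2 (tetherin), which holds budding virus at the cell surface, had 0.158 to 0.440 CPM in cKO and 0.109 to 0.451 CPM in control libraries (0.23 ± 0.33). Samd9l, a restriction factor for poxviruses, gave 0.23 ± 0.19. None of these 4 separated the groups.

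Of the 5 remaining genes, Ifi27 rose. Ifi27 (chr12:103434211-103440239, plus strand), which encodes a small hydrophobic protein induced by interferon, was at 5.62, 5.54, 5.46 and 5.10 CPM in cKO replicates 1, 3, 4 and 6, against 4.23, 3.67, 4.81 and 4.13 CPM in control replicates 1, 3, 4 and 6. Every cKO library lay above every control library, the 1 such case among the 29 genes, while 3.68% of all genes tested showed no overlap. The mean was 5.43 ± 0.229 CPM in cKO and 4.21 ± 0.466 CPM in control libraries (SD, n = 4 each), and the log2 fold change was 0.37 ± 0.10 (edgeR adjusted p = 0.0235). The adjusted p was 0.0834 without replicate 1 and 0.106 without replicate 3, within a range from 0.0194 to 0.106 over the alternatives with the block.

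Rnf213, a giant ubiquitin ligase, was at 45.5, 30.9, 36.8 and 36.6 CPM in cKO replicates 1, 3, 4 and 6, against 50.2, 34.3, 32.5 and 35.3 CPM in control replicates 1, 3, 4 and 6. Batch 1 was high in both groups, and the log2 fold change was -0.01 ± 0.06. Xaf1, a partner of the apoptosis inhibitor XIAP, was at 0.0807 to 0.335 CPM in cKO and 0.0757 to 0.451 CPM in control libraries (-0.38 ± 0.35). Ifi35 was at 0.223 to 0.705 CPM in cKO and 0.170 to 0.823 CPM in control libraries (0.38 ± 0.36). Ifi44 had 3, 0, 1 and 2 counts in cKO replicates 1, 3, 4 and 6, against 1, 5, 2 and 1 in control replicates 1, 3, 4 and 6.

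Of the 24 genes that did not pass, 9 had a higher and 15 a lower point estimate, with edgeR adjusted p from 0.0938 to 0.982. For 21 of the 24, the 95% interval of the log2 fold change lay within -1 to 1, that is, within a 2-fold change either way. The wide intervals were those of Dhx58, Ifi35 and Xaf1, all under 1 CPM.

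Levels ran over 4 orders of magnitude per kb of exon. Ifitm3 was the highest in control libraries, with 21.4 ± 13.8 CPM per kb in cKO and 20.8 ± 11.8 in control (SD, n = 4 each), followed by Ifit2 and by Adar, with 7.14 ± 0.208 in cKO and 7.21 ± 0.225 in control. The ranges of Ifitm3 and Ifit2 overlap, and so do those of Stat2 and Eif2ak2, next in order, whereas in control libraries Adar lay above Stat2 in every case. Ifi44 was the lowest in cKO libraries, with 0.00428 CPM per kb in cKO and 0.00656 in control, and Oas3 was the lowest in control libraries, with 0.00897 in cKO and 0.00112 in control. The genes that rose came from both ends of the order, with Ifit2 second, Ifi27 sixth, Ifit3 at place 21 and Ifih1 at place 29 of 37.

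**Figure D3:**
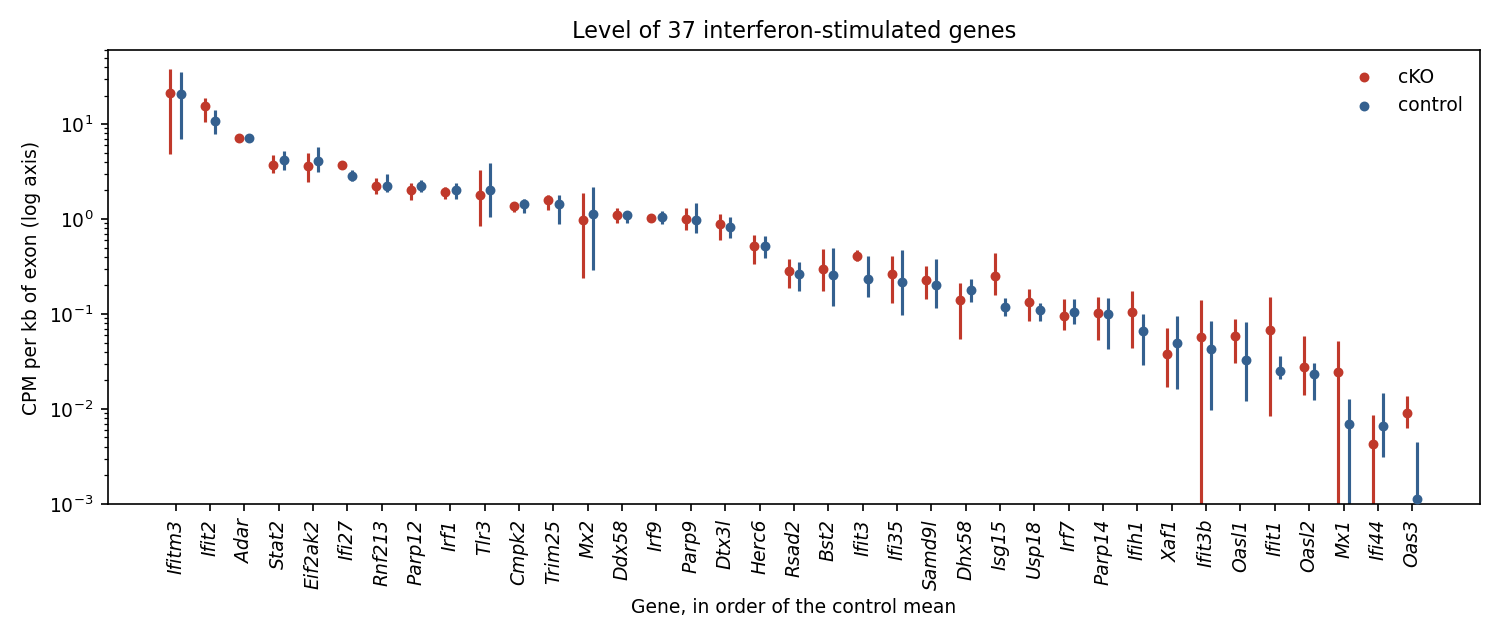
Level per kb of exon on a log axis for 37 interferon-stimulated genes, cKO left and control right, in order of the control mean. Points are means and lines the range over 4 libraries, cut at 0.001 where a library is at 0, and Ifitm3 leads with 21.4 in cKO and 20.8 in control.

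Levels of these genes differed among batches about as often as those of all genes. The test for differences among batches in the same edgeR fit passed for 21 of the 29 (72.4%), while 66.7% of all genes passed. The span between the highest and the lowest batch mean of log2 CPM exceeded the size of the cKO change in 27 of 29 genes (93.1%), while it did so in 93.9% of all genes. The span had a median of 0.83, against 0.55 for all genes, and a range from 0.10 (Adar) to 2.88 (Mx2) on the log2 scale. The exceptions were Ifit3 and Ifi27. In batch 1 the 37 genes summed to 343 CPM in the cKO library and 341 CPM in the control library, above the 259 to 295 CPM of the other 6 libraries, so that batch was high in both groups.

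**Figure D4:**
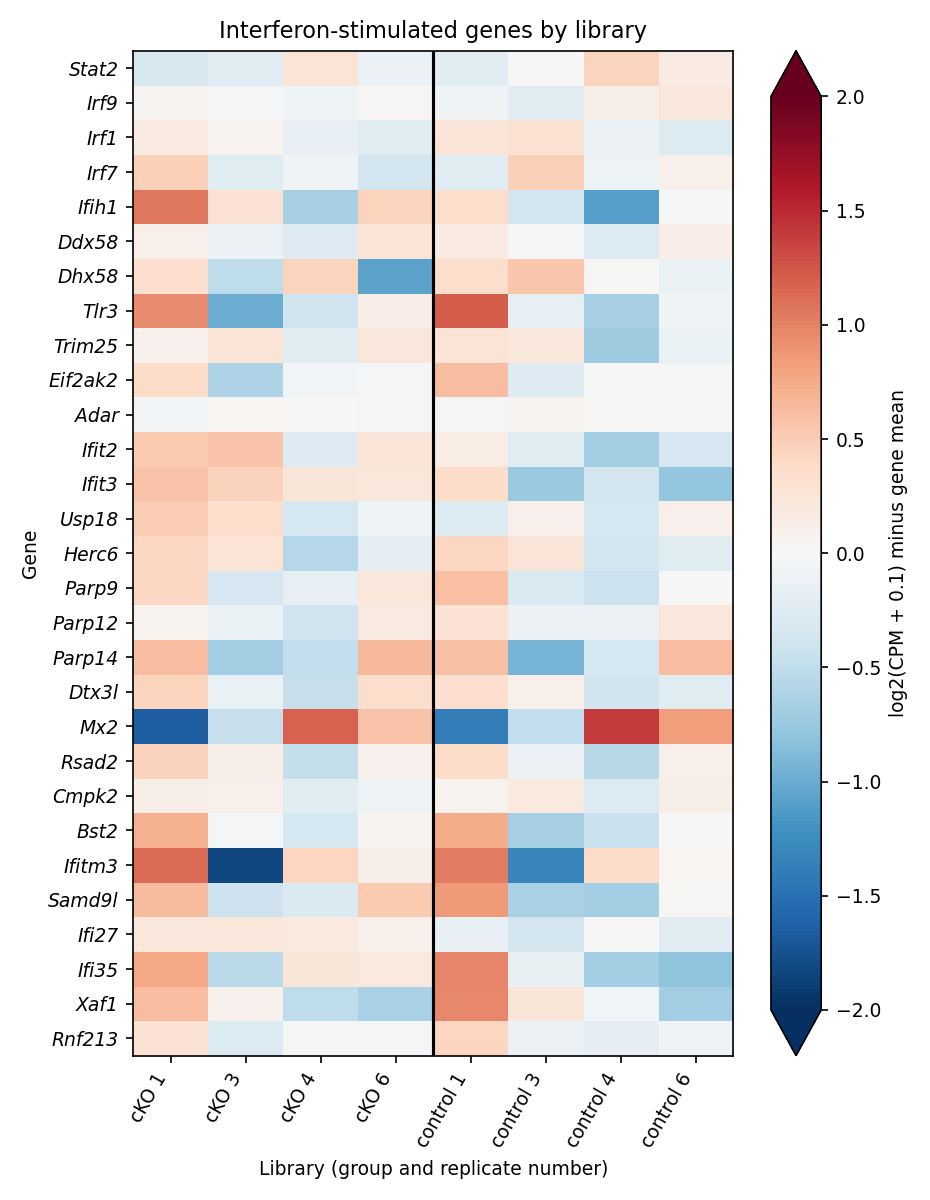
Deviation of each interferon-stimulated gene from its own mean over the 8 libraries, as log2(CPM + 0.1), with cKO libraries left of the line and control libraries right of it. For Ifitm3 and Mx2, whose batch spans were 2.66 and 2.88, columns of the same replicate number have like colours on both sides of the line.

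Other genes of the interferon pathway were read from 7 lists, of receptors, JAK-STAT signalling, innate sensing, further interferon-induced genes, GBP and IRG GTPases, antigen presentation and NF-kB signalling. Of the 117 tested genes in them, 24 rose and 13 fell, or 31.6% against the 20.5% of all genes, with a median log2 fold change of 0.05. The lists were chosen with earlier results of these data known, so the larger share is not independent evidence. Of the 117, 1 had no control library at the filter's cutoff of 0.183 CPM, so only its cKO level let it into the test. Of 5 tested receptor chain genes, 3 fell and 0 rose (60% called). Ifngr1 (-0.26 ± 0.05, edgeR adjusted p = 0.00328), Ifnar2 (-0.27 ± 0.06, adjusted p = 0.00677) and Il10rb (-0.42 ± 0.09, adjusted p = 0.0105, but 0.0622 without replicate 3) fell, and Ifnar1 was at 79.4 to 99.2 CPM in cKO and 85.3 to 104 CPM in control libraries (-0.06 ± 0.03). Among interferon genes themselves, Ifnz had 0 to 0.0705 CPM in cKO and 0 to 0.0980 CPM in control libraries and was not tested, and 16 others were not analysed here.

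Of 12 genes of JAK-STAT signalling, 3 rose and 3 fell (50% called, against 20.5% of all genes). Among them, the phosphatase genes Ptpn6 (0.84 ± 0.20) and Ptpn2 (0.20 ± 0.05) rose, and the kinase genes Jak2 (-0.20 ± 0.03), Tyk2 (-0.21 ± 0.06) and Jak1 (-0.12 ± 0.03) fell. Ptpn6 was scarce, with 307 counts over all libraries, against 42830 for Jak1. The calls of Ptpn6 and Ptpn2 were lost without replicate 1, 3 or 4 (edgeR adjusted p from 0.0549 to 0.0914), and that of Ptpn6 also with DESeq2 (0.0508).

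Of 24 genes of innate sensing and its adaptors, 2 rose and 2 fell. That is 16.7% called, below the 20.5% of all genes. Tlr7, a receptor for single-stranded RNA, was at 0.517 to 2.14 CPM in cKO and 0.0757 to 0.549 CPM in control libraries and rose by 2.06 ± 0.26. Tlr4, the receptor for lipopolysaccharide, was at 0.603 to 2.78 CPM in cKO and 0.0362 to 0.882 CPM in control libraries and rose by 2.24 ± 0.30. Mavs (-0.22 ± 0.05), the adaptor of Ifih1 and Ddx58, and the factor Irf3 (-0.20 ± 0.05) fell, and the call of Irf3 was lost without replicate 1, 3 or 4 (edgeR adjusted p from 0.0543 to 0.0756). Of 33 further interferon-induced genes outside the 39, 9 rose and 1, Zc3hav1 (-0.25 ± 0.06), fell (30.3% called). Ifitm2, the paralogue and neighbour of Ifitm3, was at 31.4, 9.52, 20.0 and 19.6 CPM in cKO replicates 1, 3, 4 and 6, against 17.4, 3.49, 7.68 and 7.04 CPM in control replicates 1, 3, 4 and 6. It rose by 1.26 ± 0.11 (edgeR adjusted p = 0.000251), whereas the interval of Ifitm3 was -0.22 to 0.19, and the difference between the paralogues was not tested. Slfn8 (3.02 ± 0.41, at under 1 CPM in every library), Lgals3bp (1.03 ± 0.20) and Tdrd7 (0.17 ± 0.03) also rose, and Lgals3bp did not pass without replicate 1 (0.84, edgeR adjusted p = 0.0546).

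**Figure D5:**
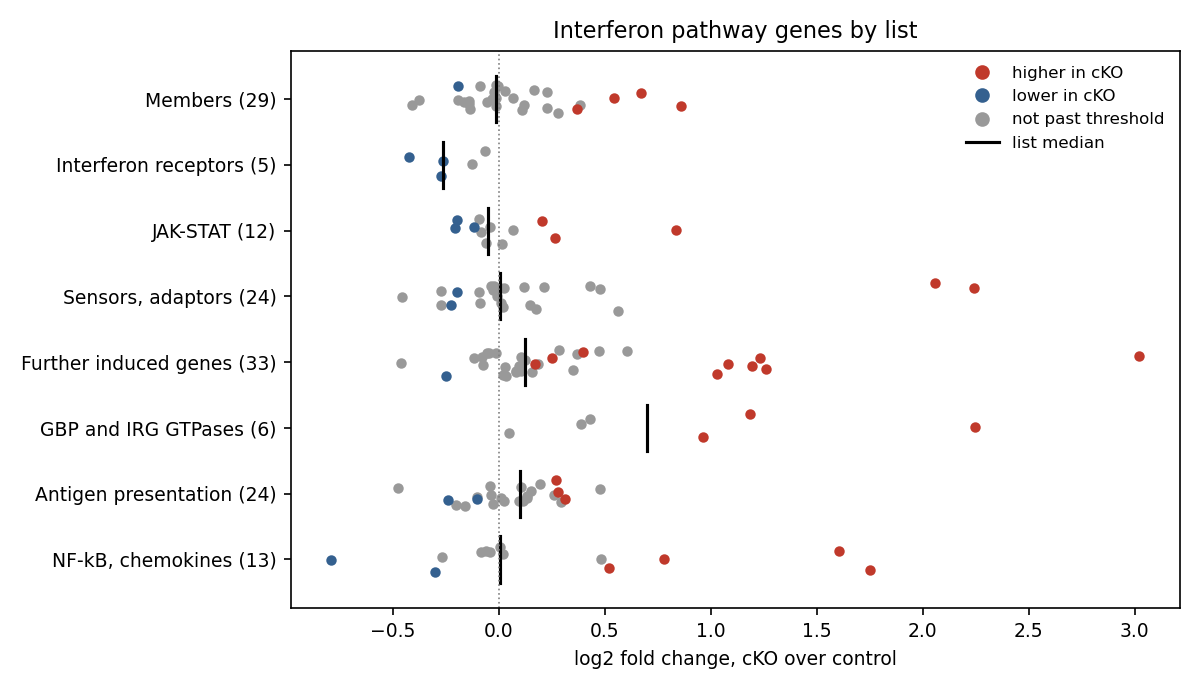
Log2 fold change of cKO over control for each tested gene of the interferon-stimulated set and of 7 pathway lists, with the number tested in brackets, colour for the call and a black line for the list median. The 29 interferon-stimulated genes centre on -0.01, and the 5 receptor genes lie at or below -0.06.

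Markers of other cell types were measured beside these genes. Of 17 markers of microglia and macrophages, 7 had a row, 3 were tested and 2 rose. The share called was 66.7% of only 3 genes, against 20.5% of all genes. Cd68, at 0.630 to 1.73 CPM in cKO and 0.379 to 0.995 CPM in control libraries, rose by 0.79 ± 0.21. P2ry12, at 0.376 to 1.41 CPM in cKO and 0.190 to 0.823 CPM in control libraries, rose by 0.77 ± 0.24. It overlaps Med12l on the opposite strand (261 counts for P2ry12 and 19573 for Med12l over all libraries). Whether counting used the strand is not known, so reads of Med12l may be among its counts. The markers Csf1r, Ptprc, Lyz2 and Mrc1 were under 0.5 CPM in every library, and 10 others, Cx3cr1 and Tmem119 among them, were not analysed here. All 7 markers with a row summed to 14.9 to 20.0 CPM in cKO and 15.3 to 19.2 CPM in control libraries, higher in cKO in 2 of 4 batches. The 6 named here leave out 1 marker that was tested and did not pass. These 6 summed to 1.40 to 3.95 CPM in cKO and 0.809 to 1.96 CPM in control libraries, higher in cKO in 4 of 4 batches. The higher sum is thus not one of the whole list, and of the 6 only Cd68 and P2ry12 were tested. Summed endothelial markers were at 3.69 to 9.06 CPM in cKO and 3.07 to 11.3 CPM in control libraries. Summed neuronal markers were at 74.1 to 103 CPM in cKO and 45.5 to 87.1 CPM in control libraries and were higher in cKO in 4 of 4 batches. Summed astrocyte markers were at 719 to 1549 CPM in cKO and 691 to 1577 CPM in control libraries and were higher in cKO in 3 of 4 batches. Among 9 tested, 3 rose and 3 fell (66.7% called, against 20.5% of all genes). The part of such cells in the changes of Ifit3, Ifih1 and other scarce genes was not tested.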

How the data were processed

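Libraries were made from oligo-dT captured mRNA of RIN 8 or more, per the labels' protocols. The submitters' processing notes name mm10 and the tools STAR, cutadapt, Partek and DESeq2. Tool versions, gene annotation and strand setting were not given in the sources used. The deposited table gives expected counts per gene, whose totals differ between libraries, and non-whole numbers make up 52% of its values. Coordinates of genes are those of that table.

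Expected counts were rounded and scaled by TMM, and genes were kept by filterByExpr (minimum count 10). Group was tested with edgeR 4.0.16 (glmQLFit, robust, and glmQLFTest, 2-sided, R 4.3.3) with replicate number as a block and Benjamini-Hochberg adjustment over 18102 genes, threshold 0.05. The pairing comes from batch names in the labels, and same-numbered libraries deviated from their group means together (r = 0.79, 0.79, 0.76 and 0.75, against at most 0.39 for other numbers). No libraries of a group were duplicates (chi-square per degree of freedom 54.2 to 251 over 12 pairs). At these depths the spread between libraries limits precision, and below about 1 CPM counting error adds to it. Limits from counts of 0 cover counting error only. Alternatives used RLE or upper-quartile factors, other filters, DESeq2 1.42.0, limma-voom 3.58.1, group alone, and 1 batch left out. Scripts were tested on simulated data.

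The 39 genes and the pathway and marker lists were chosen with earlier results of these data known. Genes past the threshold are given in full, with the 6 most abundant of the others and members of the same families, and up to 4 genes per pathway list by smallest p. Promoter sequences are from RefSeq (GRCm38.p6). A few list genes outside this rule, such as Jak1, Tyk2, Ifnar1, Zc3hav1 and Irgm1, were named after their values were seen. Some genes taken by the naming rule are left out.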

Additional observations from a re-analysis of the deposited data

Results flagged for a closer look

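In 2 of 112 groups of 4 libraries, 1 library stood apart from the others by Dixon's ratio of its gap to the whole range (past the 95% critical value for 4 samples), and chance flags about 1 group in 20. Rnf213 was at 50.2 CPM in control replicate 1, with the other control libraries at 32.5 to 35.3 CPM (ratio 0.839). Gbp9 was at 0.647 CPM in control replicate 1, with the other control libraries at 0.109 to 0.190 CPM (ratio 0.848).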

How the results depend on the processing

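The number of interferon-stimulated genes past the threshold, 5 of 29, was 0 without the replicate block, 3 of 21 with a filter of 1 CPM in 4 libraries and 3 with DESeq2. It was 1 to 3 with a batch left out. Without Ifit3, Ifi27 and Ifitm3, set aside for near-identical copies, it was 3 of 26. Ifi27 in fact shared no 75-base stretch with another gene, and Ifitm3 shared 0.662% of its stretches. Ifit3 and Ifi27 are among the 5 called genes, so that drop follows from their removal. Without the replicate block, 3 of all genes passed, against 3706 with it, and 0 of the 117 pathway genes, against 37. With a batch left out, 2102 to 3432 of all genes and 21 to 33 pathway genes passed. The median log2 fold change of the interferon-stimulated genes, -0.01, was 0.074 with no filter, which adds 8 scarce genes, and 0.0012 to 0.055 with a batch left out. Of 338 alternative values for the 29 genes, 316 stayed on their side of the threshold, 21 lost it and 1 (Eif2ak2 without replicate 6) gained it. Of the same values, 23, from 10 genes that did not pass (8 of them from Ddx58), had the other sign, and 0 values of the 5 called genes did. Leaving out CT010467.1, an alternative chosen after seeing the data, gave 5 calls as well. The test for differences among batches was also added after seeing the data and gave 18 to 22 genes. The causes were not tested. Below about 1 CPM, as for Isg15, Ifit1 and Oas3, counting error adds to the spread between libraries.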

Other observations

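Interferon-inducible GTPase genes of the GBP and IRG families, which attack vacuoles of intracellular pathogens, had 3 rises and 0 falls among 6 tested. That is 50% called, against 20.5% of all genes. Gbp7 was at 8.42, 4.40, 5.32 and 6.76 CPM in cKO replicates 1, 3, 4 and 6, against 4.84, 3.35, 2.16 and 2.59 CPM in control replicates 1, 3, 4 and 6, and rose by 0.96 ± 0.16 (edgeR adjusted p = 0.00427). Gbp6 (2.25 ± 0.37) and Gbp9 (1.18 ± 0.33) rose at lower levels, and Gbp9 passed neither with DESeq2, nor in the fit with group alone, nor without replicate 1, 4 or 6 (edgeR adjusted p from 0.0791 to 0.105). Irgm1, at 7.24 to 12.8 CPM in cKO and 6.42 to 13.1 CPM in control libraries, had a log2 fold change of 0.05 ± 0.07.

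Of 24 genes of antigen presentation, 3 rose and 2 fell. The share called, 20.8%, is near the 20.5% of all genes. The class I gene H2-D1 was at 16.2 to 17.8 CPM in cKO and 13.2 to 14.4 CPM in control libraries and rose by 0.31 ± 0.06. H2-T22 (0.28 ± 0.06) and the peptidase gene Erap1 (0.27 ± 0.07) rose as well, and the chaperone gene Tapbp (-0.24 ± 0.05) fell. The call of H2-T22 was lost without replicate 1 (edgeR adjusted p = 0.0536) and that of Erap1 without replicate 3 (0.103) or 6 (0.0785). Of 13 genes of NF-kB signalling and chemokines, 4 rose and 2 fell (46.2% called). Vcam1, an adhesion molecule, was at 36.2, 9.58, 31.6 and 63.3 CPM in cKO replicates 1, 3, 4 and 6, against 53.9, 14.9, 59.8 and 124 CPM in control replicates 1, 3, 4 and 6, and fell by 0.79 on the log2 scale. Casp1 (1.60 ± 0.26), Ccl2 (1.75 ± 0.43) and Tnfaip3 (0.52 ± 0.13) rose, and Casp1 and Ccl2 were under 1 CPM in every control library. Without replicate 1, Ccl2 was at 1.11 with an edgeR adjusted p of 0.135, and its adjusted p was 0.0506 without replicate 4. The call of Tnfaip3 was lost without replicate 4 (0.0516) or 6 (0.0713).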
